A study of Mus musculus with 12 samples.

Results

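Transcript levels of Carm1 knockout mouse embryonic fibroblasts were compared with those of wild-type fibroblasts in nutrient-rich medium. The comparison rests on 4 of the 12 samples of the series, 2 RNA-seq libraries per genotype, and they were chosen by genotype and medium as labelled. Both genotypes carry the strain label C57BL/6, were used at passages 3 to 5, were grown in DMEM with 10% fetal bovine serum and are titled 0 h. The same 2 genotypes after 18 h in DMEM without glucose and with 10% dialyzed serum supplied the other 4 RNA-seq libraries, which entered the fit and were used as a separate pair of groups. The 4 chromatin immunoprecipitation and input samples are not analysed here. How the Carm1 allele was made, which exons it lacks and whether the libraries of a genotype came from separate embryos or cultures is not stated in the labels. The p-values therefore measure only the spread between these libraries, which may be technical, and genotype cannot be told apart from the embryos or cultures that the cells came from.

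CARM1, also known as PRMT4, is an enzyme that transfers methyl groups to arginine residues of histone H3 and of coactivators, splicing factors and other RNA-binding proteins. It was found as a partner of the p160 coactivators of nuclear receptors and is recruited to promoters and enhancers, where its mark is associated with active transcription. Mouse embryonic fibroblasts are mesenchymal cells grown out of dissociated embryos. They make the collagens and proteoglycans of connective tissue, respond to serum and interferon, and keep in culture part of the Hox code of the body region from which they derive.

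The 2 knockout libraries were not alike, and they are given one by one throughout. Knockout replicate 1 held 8447016 counts over genes and knockout replicate 2 held 21529669, against 20495124 and 26907501 in the wild-type libraries. By these totals, with no scaling factor, 3 counts stand for 0.355 CPM in knockout replicate 1 and for 0.111 to 0.146 CPM in the other 3 libraries. Values below are in CPM, counts scaled to a common library size with TMM factors that correct for composition, and they are compared only within a gene. Over the genes tested, the SD of the log2 ratio between the 2 replicates was 0.91 in the knockout pair and 0.35 in the wild-type pair, and 3378 genes differed by more than 2-fold between the knockout replicates against 420 between the wild-type replicates. The starved knockout pair had an SD of 0.36, close to that of the wild-type pairs. No 2 replicates agreed within counting noise, since chi-square per degree of freedom was 4.51 for the wild-type pair in rich medium and 104 for the knockout pair, and all were kept as separate libraries.

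Of 13882 genes tested, 6392 in knockout replicate 1 (46%) and 4161 in knockout replicate 2 (30%) lay more than 2-fold from the wild-type mean. In 3446 genes both knockout libraries did so in the same direction, 1788 higher and 1658 lower, and in 39 genes they did so in opposite directions. Another 2907 genes passed 2-fold in knockout replicate 1 alone, of which 1958 were lower, and 676 passed it in knockout replicate 2 alone, of which 447 were higher. Across genes, which are not independent replicates and share the wild-type mean as their base, the log2 ratios of the 2 knockout libraries had a Pearson correlation of 0.90 and a Spearman correlation of 0.76. Among the genes with at least 10 CPM in a library that differed most within the pair, Nexn, which encodes an actin-binding protein, was at 20.9 and 5.1 CPM in knockout replicates 1 and 2, and Ppig, a nuclear cyclophilin, was at 659 and 177. In the opposite direction Znhit2 was at 1.35 and 16.3 CPM, Tspo, a protein of the outer mitochondrial membrane, at 11.3 and 93.3, and Rps14, a protein of the small ribosomal subunit, at 40 and 297. These 5 genes did not pass edgeR's test with both knockout libraries. With both libraries Nexn passed under limma-voom (log2 fold change -1.52, adjusted p = 0.0377) and with its library quality weights (-1.81, adjusted p = 0.0159), and Ppig under DESeq2 (1.19, adjusted p = 0.0447). Single libraries decide their values. Without knockout replicate 2 the fitted log2 fold change was -3.26 for Znhit2, -2.51 for Tspo, -2.59 for Rps14 and 1.79 for Ppig, and without knockout replicate 1 it was -2.30 for Nexn, 0.50 for Tspo and 0.26 for Rps14, all of which passed.

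**Figure D1:**
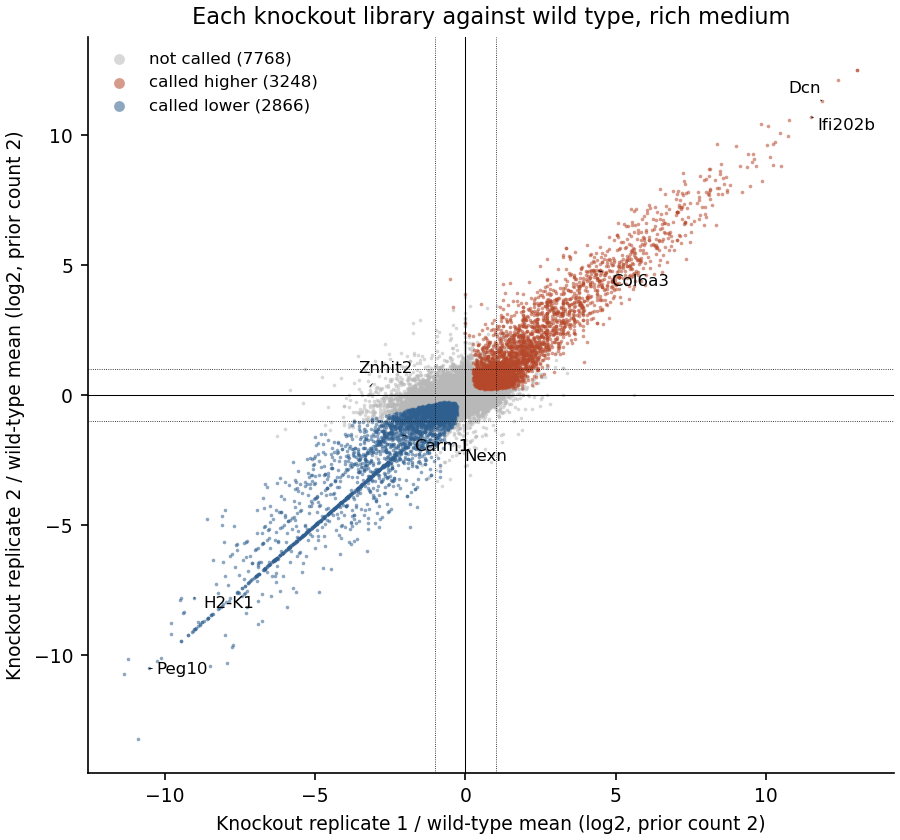
Each point is 1 of 13882 genes tested in rich medium. The horizontal axis is the log2 ratio of knockout replicate 1 to the mean of the 2 wild-type libraries and the vertical axis that of knockout replicate 2, both with a prior count of 2. Dotted lines mark 2-fold, and colours mark the 3248 genes called higher, the 2866 called lower and those not called. The strongest differences lie along the diagonal, whereas 2907 genes pass 2-fold on the horizontal axis alone.

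The difference within the pair varied weakly with the genomic span of the genes. By RefSeq gene models of the GRCm38.p6 assembly, matched for 99.8% of the genes tested, the median log2 ratio of knockout replicate 1 to replicate 2 was -0.52 in the quartile of genes with the shortest span, -0.26 in the second quartile, 0 in the third and 0.15 in the quartile with the longest. For the 2 wild-type libraries the same medians lay between -0.0016 and 0.0085. Across 13858 genes the log2 span had a Pearson correlation of 0.28 with the log2 ratio of the knockout pair and 0.04 with that of the wild-type pair, as a description without a test. Against wild type the medians by quartile ran from -0.60 to 0.23 in knockout replicate 1 and from -0.01 to 0.05 in knockout replicate 2. Among the gene lists, ribosomal proteins and histones differed between the 2 libraries in the same sense. The 53 cytosolic ribosomal protein genes had a median of -0.45 in knockout replicate 1 and 0.11 in knockout replicate 2, and only 4 of them passed the test, 2 in each direction. The 15 replication-dependent histone genes tested had medians of -1.26 and 0.24, and 2 passed the test, both lower. The part of the lower depth of knockout replicate 1 in these differences was not tested.

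By edgeR's quasi-likelihood test, 6114 genes (44% of those tested) differed between knockout and wild type at an adjusted p under 0.05. Of these, 3248 were higher (23.4% of those tested) and 2866 lower (20.6%). The spread in this test was estimated over all 4 groups, so the p-values do not measure the spread of the knockout pair alone. The same holds for each SE given below, which was derived from the fold change and the F statistic of this test. The other pairs were closer, with an SD of 0.34 to 0.36 against 0.91 in that pair. In 6109 of the 6114 both knockout libraries lay on the same side of both wild-type libraries, so that the groups overlapped in only 5 of the genes called, whereas 9706 of all genes tested lay so. The fitted change exceeded 2-fold in 2140 of the higher and 1893 of the lower genes. Of the 3446 genes past 2-fold in the same direction in both knockout libraries 3275 were called, against 1127 of the 2907 past it in replicate 1 alone and 306 of the 676 past it in replicate 2 alone. The count moved widely with the libraries used. It was 9390 without knockout replicate 1 and 10336 without knockout replicate 2, where the remaining knockout library is assumed to vary like the other groups, 3487 and 3369 without 1 or the other wild-type library, and 3245 in a fit of the 4 rich-medium libraries alone. In all, 2493 of the 6114 calls, 1552 higher and 941 lower, held under every alternative in which the gene was tested, and 2069 of these were tested in all of them. The called genes named below are among the 2493 unless stated.

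Carm1 itself was at 207 and 204 CPM in the wild-type libraries and at 48.1 and 70.8 CPM in the knockout libraries, without overlap, a log2 fold change of -1.79 ± 0.19 (SE, adjusted p = 0.00038). Which part of the transcript the remaining reads cover cannot be read from a table with 1 count per transcript. Of 10 arginine methyltransferase genes and partners tested, 2 rose and 4 fell, so that 60% were called against 44% of all genes tested. The fall held under every alternative for only Carm1 and Prmt2. Prmt2, which encodes another arginine methyltransferase that acts with nuclear receptors, fell from 50.2 and 51.7 to 12.3 and 14.9 CPM, a log2 fold change of -1.90 ± 0.15 (SE, adjusted p = 0.00011) and thus of the size of that of Carm1. Among 20 coactivators and partners of CARM1, 5 rose (25%) and 5 fell (25%), shares near the 23.4% and 20.6% of all genes tested. Single members are given as values and not as a result about the list. Mef2c, a transcription factor of muscle and vascular cells that works with CARM1 in myoblasts, fell from 6.32 and 5.56 CPM to 0 counts in both knockout libraries, at least 58.3-fold lower against a floor of 3 counts over the pair. Pabpc1, the cytoplasmic poly(A)-binding protein and a substrate of CARM1, rose from 1217 and 1177 to 4755 and 2781 CPM, and Ncoa1, a p160 coactivator, from 20 and 18.4 to 39.7 and 33.1 CPM.

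Some genes had reads in 1 genotype and none in the other. In rich medium 107 genes had at least 5 CPM in each wild-type library and 0 counts in both knockout libraries, and 71 genes had the opposite pattern. Peg10, a retrotransposon-derived imprinted gene needed in the placenta, had 137 and 122 CPM in wild type and 0 counts in the knockout, at least 1272-fold lower. Dsp, the desmosomal plaque protein desmoplakin, went from 108 and 107 CPM to 0 counts (at least 1059-fold). The same held for the T-type calcium channel gene Cacna1h (96.5 and 99.1 CPM in wild type), the adhesion molecule gene Cadm1 (59.8 and 65.1), the netrin receptor gene Unc5c (57.8 and 48.6), the heparan sulfate sulfatase gene Sulf1 (52 and 52.6) and Sox12 (45.7 and 48.7), a SoxC transcription factor. On the other side, Ifi202b, an interferon-inducible DNA sensor gene whose level is known to differ between inbred mouse strains, had 0 counts in both wild-type libraries and 255 and 146 CPM in the knockout, at least 2909-fold higher. The carboxylesterase gene Ces1g had 0 counts in wild type and 124 and 95.5 CPM in the knockout, and Ces1f and Ces2g of the same superfamily 0 and 30.9 and 34.5 and 49.2 and 40 CPM. The immune-regulatory membrane glycoprotein gene Cd200 (66.8 and 55.1 CPM in the knockout), the adrenomedullin receptor partner gene Ramp3 (28.8 and 71.5), the zinc-finger patterning gene Zic1 (57.1 and 38.8) and Clca4 (61.2 and 23.5) likewise had no count in wild type. The proliferin genes Prl2c2, Prl2c3 and Prl2c4, prolactin-family hormones known from the placenta and from growing fibroblasts, had between 2 and 3 counts over the wild-type pair each, and Prl2c3 reached 982 and 686 CPM in the knockout. These copies are nearly identical, and reads cannot be divided between them with certainty.

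Interferon-stimulated genes had the lowest median of the 41 gene lists, the cell type marker lists aside. Interferons bind cell-surface receptors and activate a transcription factor complex that binds interferon-stimulated response elements in promoters and switches on antiviral effectors, and fibroblasts keep a low tone of this programme without infection. Of 37 such genes tested, 33 fell and 3 rose, with a median log2 fold change of -4.47 (-4.38 with genes at 0 counts set to their bound), beside a median of 0.00092 over all genes tested and 20.6% of them called lower. The medians of the 2 knockout libraries were -4.47 and -4.29, so that here they differed little. The list does not hold every interferon-inducible gene, and Ifi202b, given above and outside the list, rose from 0 counts in wild type. Without knockout replicate 1 the list had 34 lower and 3 higher, and without knockout replicate 2 it had 33 and 3.

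The regulators fell with the effectors. Irf7, the factor that amplifies interferon production, was at 52.2 and 48.5 CPM in wild type and 0.246 and 0.371 CPM in the knockout, a log2 fold change of -7.22 ± 0.28 (SE, adjusted p = 7.9e-06). Irf9, the DNA-binding subunit of the interferon-activated complex, was at 93.4 and 105 and 4.06 and 4.78 CPM (-4.47 ± 0.18 (SE, adjusted p = 7.9e-06)). Ifih1, the cytosolic sensor of double-stranded RNA also called MDA5, was at 46.5 and 44 CPM in wild type and had 0 counts in the knockout (at least 446-fold lower). Both wild-type libraries were high and both knockout libraries near 0 in each case except Irf9, which kept a low level. Among the effectors, Isg15, a ubiquitin-like modifier, was at 75.3 and 77.7 CPM in wild type and 0.984 and 0.325 CPM in the knockout (-7.15 ± 0.37 (SE, adjusted p = 1.9e-05)). Bst2, which tethers budding virions, was at 90.7 and 90.1 and 0.246 and 2.74 CPM (-5.63 ± 0.67 (SE, adjusted p = 0.00062)), Oasl2 at 67.2 and 71 and 0.492 and 0.696 CPM, Ifit1, which binds viral RNA caps, at 48.8 and 53.1 and 0.738 and 0.0928 CPM, and Rtp4 at 28.9 and 28.1 and 0.246 and 0.139 CPM. The interferon-inducible chemokine genes Cxcl10 (24.2 and 26.6 to 0.123 and 0.186 CPM) and Ccl5 (8.09 and 10.6 to 0 and 0.0928 CPM, 2 counts in the knockout pair) fell as well. Against these, the guanylate-binding protein gene Gbp2 rose from 12.2 and 10.3 to 50.1 and 36.3 CPM (1.93 ± 0.24 (SE, adjusted p = 0.00072)) and Trim30a, a regulator of inflammatory signalling, from 11 and 11.2 to 46 and 28.4 CPM. Mx1, the third that rose, stayed at a low level (0.651 and 0.535 CPM in wild type and 1.85 and 2.04 CPM in the knockout), and it no longer passed without wild-type replicate 2 (adjusted p = 0.063) or with limma-voom and library quality weights (adjusted p = 0.112). The gene that did not pass was Ifit2, at 38.7 and 37.3 CPM in wild type and 43.4 and 24.8 CPM in the knockout libraries, and it passed without knockout replicate 1 (log2 fold change -0.66).

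The promoters of 4 of these genes are shown because they carry the response element that the activated complex binds, 3 of them for genes that fell and Gbp2 for a gene that rose. They are RefSeq windows on GRCm38.p6 from 250 bases before to 50 bases after the annotated start, 5′ to 3′ on the strand of the gene. Capitals mark matches to the element core, GAAANNGAAA on either strand, which appears as TTTCNNTTTC when read on the other strand, and matches may overlap.
Isg15, chr4:156200769-156201068, minus strand: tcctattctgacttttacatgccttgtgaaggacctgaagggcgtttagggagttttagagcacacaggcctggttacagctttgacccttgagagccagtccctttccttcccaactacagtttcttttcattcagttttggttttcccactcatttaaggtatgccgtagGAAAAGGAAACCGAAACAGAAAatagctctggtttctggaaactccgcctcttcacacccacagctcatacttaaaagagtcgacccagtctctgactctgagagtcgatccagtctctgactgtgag
Ifit1, chr19:34640639-34640938, plus strand: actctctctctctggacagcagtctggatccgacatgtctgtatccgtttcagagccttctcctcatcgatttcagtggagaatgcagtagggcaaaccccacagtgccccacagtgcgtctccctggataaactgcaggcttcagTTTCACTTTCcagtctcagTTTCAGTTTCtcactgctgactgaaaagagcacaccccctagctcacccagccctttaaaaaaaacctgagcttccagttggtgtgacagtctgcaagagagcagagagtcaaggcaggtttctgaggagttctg
Bst2, chr8:71537423-71537722, minus strand: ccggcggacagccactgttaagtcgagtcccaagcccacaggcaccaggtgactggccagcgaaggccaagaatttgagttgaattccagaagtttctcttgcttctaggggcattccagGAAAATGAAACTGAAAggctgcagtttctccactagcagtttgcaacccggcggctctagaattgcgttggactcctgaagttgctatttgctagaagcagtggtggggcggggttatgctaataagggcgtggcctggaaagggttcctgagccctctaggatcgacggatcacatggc
Gbp2, chr3:142620413-142620712, plus strand: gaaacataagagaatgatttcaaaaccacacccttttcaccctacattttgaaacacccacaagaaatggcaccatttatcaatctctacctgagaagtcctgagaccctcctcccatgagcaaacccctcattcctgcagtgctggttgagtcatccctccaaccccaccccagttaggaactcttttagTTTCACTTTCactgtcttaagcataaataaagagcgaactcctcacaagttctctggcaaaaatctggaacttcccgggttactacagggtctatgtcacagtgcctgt
The match nearest to the start began 66 bases before it for Isg15, 85 for Ifit1, 124 for Bst2 and 59 for Gbp2. At least 1 match was present in 17 of the 28 interferon-stimulated genes that had a window (60.7%), against 363 of the 10088 genes tested that had a window (3.60%) and 1079 of all 27025 genes with a window (3.99%). Counted by window, since a gene can have several, the share was 1131 of all 32851 windows of this length (3.44%). Among those 28, 15 of the 25 genes that fell held a match and 2 of the 3 others, Gbp2 and Trim30a, did. A match is a description of the sequence and not evidence that the site was bound in these cells.

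Genes for antigen presentation by MHC class I can be induced by interferon. Whether their difference here is linked to that of the interferon-stimulated genes was not tested. Of 15 genes of the list tested, 10 fell (66.7%) and 1 rose (6.7%), beside 20.6% and 23.4% of all genes tested. The median was -1.62 and differed between the libraries (-2.43 in knockout replicate 1 and -1.32 in replicate 2). H2-K1, a classical class I heavy chain gene, was at 246 and 229 CPM in wild type and 0.369 and 0.974 CPM in the knockout (-8.24 ± 0.29 (SE, adjusted p = 6.5e-06)). Psmb8, a catalytic subunit of the immunoproteasome, was at 17.2 and 16 CPM and then at 0 counts (at least 164-fold lower), and Tap1, a subunit of the peptide transporter, went from 32.7 and 33.3 to 1.72 and 5.61 CPM. Tapbp, the chaperone tapasin, fell from 183 and 199 to 47.4 and 76.3 CPM. The light chain gene B2m did not pass the test, at 434 and 395 CPM in wild type and 639 and 272 CPM in the knockout libraries, which lay on either side of wild type. Its log2 fold change was -0.65 without knockout replicate 1 and 0.62 without knockout replicate 2, and both passed. Class I heavy chain genes are close paralogs and differ between mouse haplotypes, so the counts of single H2 genes are uncertain.

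Genes that record body position differed with the region they stand for. Hox genes are ordered along 4 clusters, and those near one end of a cluster are used in anterior regions and those near the other in posterior regions and distal limbs. Of 39 Hox genes, 19 were tested, 11 rose (57.9%) and 5 fell (26.3%), beside 23.4% and 20.6% of all genes tested. Among these calls 9 of the rises and all 5 falls held under every alternative in which the gene was tested. Of these, 4 rises and 4 falls were tested in all of them, whereas Hoxa13, Hoxb4 and Hoxc6, named below, were not. The 5 that fell were all of the groups 9 to 13. Hoxa11 was at 39.8 and 39.7 CPM in wild type and had 0 counts in the knockout (at least 393-fold lower), Hoxd13 was at 12.5 and 11.9 CPM and then 0 counts (at least 120.4-fold), and Hoxa13 at 2.6 and 2.64 CPM and then 0 counts. Hoxa10 fell from 40.8 and 38.8 to 6.52 and 7.65 CPM (-2.48 ± 0.19 (SE, adjusted p = 8.6e-05)) and Hoxa9 from 21.5 and 21.7 to 9.84 and 7.1 CPM. Those that rose were all of the groups 2 to 6. Hoxa2 went from 0.836 and 1.14 to 15.9 and 11.1 CPM (3.73 ± 0.29 (SE, adjusted p = 0.0001)) and Hoxa3 from 4.51 and 3.46 to 21.3 and 18.4 CPM. Hoxb2, Hoxb4 and Hoxc6 had 0 counts in wild type and 6.89 and 13.3, 5.05 and 9.65 and 5.29 and 4.68 CPM in the knockout, and Hoxb3 went from 2 counts over the wild-type pair to 17.4 and 17.6 CPM, a ratio of 434-fold (95% interval 119.6 to 3594). Within the HoxA cluster the direction thus changed between Hoxa3 and Hoxa9, and Hoxa7, which lies between them, did not pass (11.5 and 11.4 CPM in wild type and 13.4 and 16.1 CPM in the knockout) except without knockout replicate 1 (log2 fold change 0.45).

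Other transcription factors of limb, trunk and organ mesenchyme were divided, with 17 of 43 tested higher (39.5%) and 18 lower (41.9%). Of all genes tested 23.4% were higher and 20.6% lower. Pitx1, which specifies the hindlimb, was at 45.3 and 51.5 CPM in wild type and had 0 counts in the knockout (at least 483-fold lower). Pax3, a factor of the somites and neural crest, was at 46.5 and 44.9 CPM and then 0 counts, and Lmx1b, which gives the limb its dorsal identity, at 9.29 and 11.3 CPM and then 0 counts. Lhx9 fell from 76.6 and 73 to 0.369 and 0.464 CPM. Conversely Wt1, a factor of the gonad, kidney and mesothelium, had 0 counts in wild type and 22.3 and 10 CPM in the knockout, and Tbx3 rose from 0.186 and 0.749 to 42.8 and 60 CPM (6.69 ± 0.49 (SE, adjusted p = 7.4e-05)). Gata4 had 2 counts over the wild-type pair and 4.18 and 12.2 CPM in the knockout. Osr1, an early marker of intermediate mesoderm, rose from 8.04 and 6.45 to 63.2 and 98.1 CPM, and Nr2f1 from 1.02 and 1.32 to 8.74 and 14.9 CPM. Prrx1, a general factor of limb mesenchyme, was high in both genotypes and rose from 146 and 148 to 740.0 and 448 CPM. Whether these differences go with the genotype or with the part of the embryo from which each culture was grown cannot be told apart here.

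**Figure D2:**
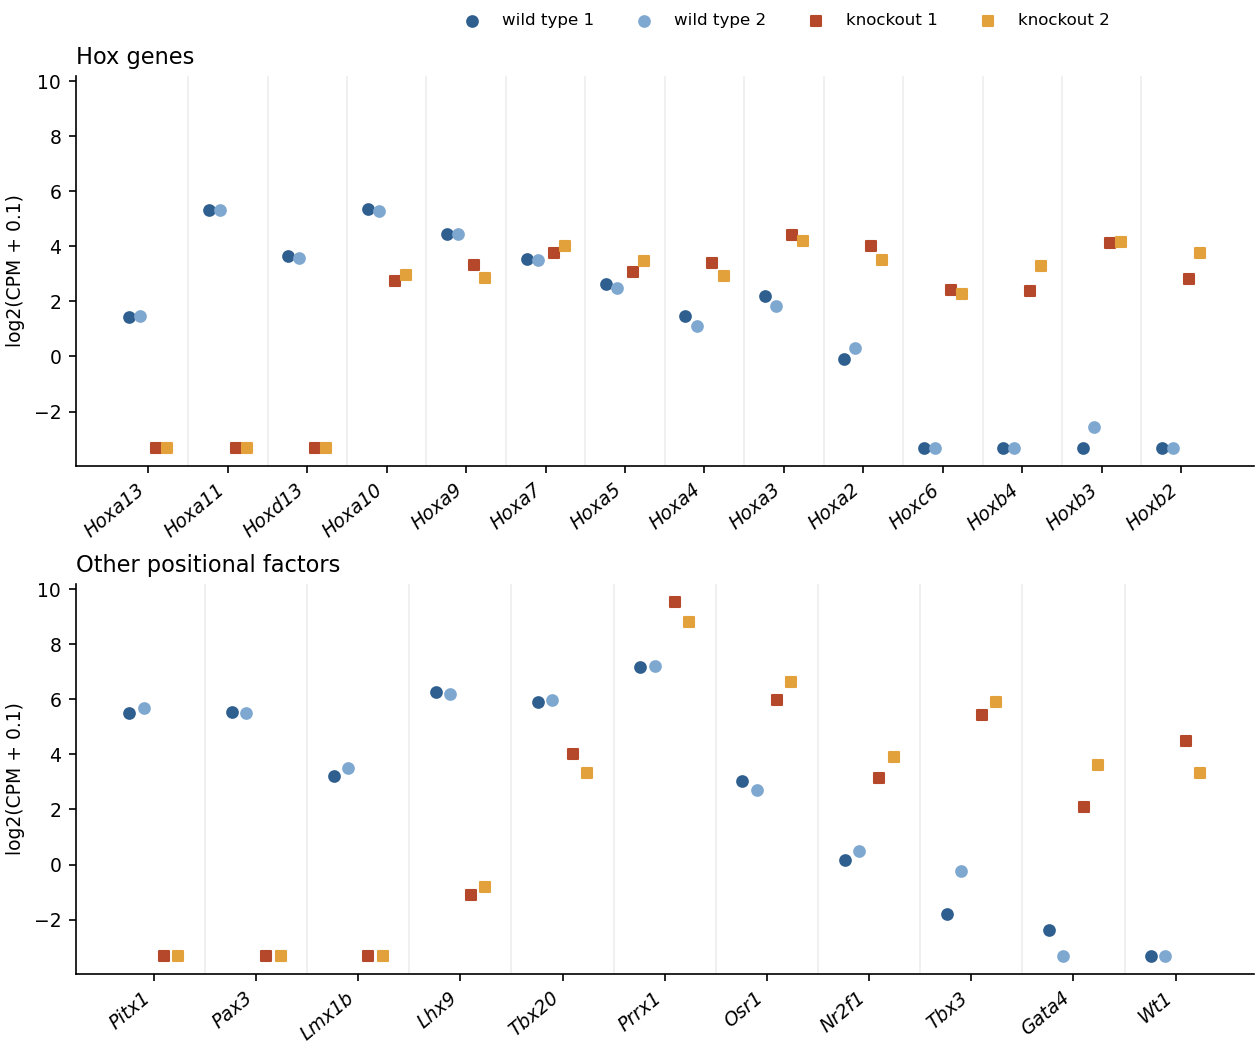
Levels of 14 Hox genes (top) and 11 other positional factors (bottom) in each of the 4 rich-medium libraries, as log2 of CPM plus 0.1. Circles are the 2 wild-type libraries and squares the 2 knockout libraries, and points at the bottom are 0 counts. Hoxa13, Hoxa11, Hoxd13, Pitx1, Pax3 and Lmx1b have 0 counts in both knockout libraries, and Hoxb2, Hoxb4, Hoxc6 and Wt1 have 0 counts in both wild-type libraries.

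Imprinted genes, which are expressed from one parental allele and tend to control fetal growth, changed in 20 of 24 tested, 12 higher and 8 lower. The share called was 83.3%, against 44% of all genes tested. The neighbouring genes Peg10 and Sgce, which share a control region and are expressed from the paternal allele, both had 0 counts in the knockout, from 137 and 122 and 36 and 31 CPM. Grb10, an adaptor that restrains insulin receptor signalling, was at 431 and 427 CPM in wild type and 2.21 and 2.09 CPM in the knockout (-7.65 ± 0.29 (SE, adjusted p = 7.6e-06)). Igf2, the fetal growth factor, fell from a low level of 6.46 and 6.52 CPM to 0.861 and 0.557 CPM. The maternally expressed RNAs of the Dlk1-Dio3 region rose together, Meg3 from 0.325 and 0.677 to 78.1 and 102 CPM (7.43 ± 0.31 (SE, adjusted p = 8.9e-06)), Rian from 0.651 and 0.464 to 178 and 149 CPM (8.21 ± 0.27 (SE, adjusted p = 6.4e-06)) and Mirg from 2 counts to 7.01 and 4.36 CPM. Peg3, a paternally expressed zinc-finger gene, rose from 0.418 and 1.14 to 59.7 and 43.8 CPM. The X-inactivation RNA Xist was at 867 and 847 CPM in wild type and had 3 counts over the knockout pair, a ratio of 8466-fold (95% interval 2897 to 41056). Its antisense partner Tsix was at 41.6 and 48.4 CPM and then 0 counts, and because the labels and notes do not state whether counting used strand, reads of the 2 overlapping genes cannot be told apart. Of the list of X-inactivation and Y-linked genes 8 were tested, 3 fell and 5 did not pass, so that 37.5% were called. The third that fell was Kdm5c, an X-linked histone demethylase gene, from 249.6 and 258 to 103 and 159.9 CPM, a call lost with the 4 rich-medium libraries alone, with a 1.5-fold minimum and without wild-type replicate 2. The X-linked genes Ddx3x (864 and 874 CPM in wild type and 1032 and 650.3 CPM in the knockout), Eif2s3x (548 and 515 and 499.8 and 378), Kdm6a (50.5 and 48.7 and 71.2 and 44.9), Ftx (8.6 and 8.95 and 14.8 and 9.55) and Jpx (0.929 and 0.998 and 1.48 and 2.04) did not pass, although each of these 5 did in a fit without 1 or the other knockout library. Each of the 4 Y-linked members was at 0 counts in all 8 libraries.

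The matrix genes that define fibroblasts were rearranged rather than moved in one direction. Of 23 fibrillar and network collagen genes tested 13 fell (56.5%) and 6 rose (26.1%), with a median of -1.18. Of all genes tested 20.6% fell and 23.4% rose. The basement membrane chain genes Col4a1 and Col4a2, which are transcribed from a shared promoter region, both fell. Col4a1 went from 428 and 469.6 to 4.06 and 11.3 CPM (-5.79 ± 0.42 (SE, adjusted p = 7.1e-05)) and Col4a2 from 301 and 334 to 6.64 and 8.44 CPM (-5.37 ± 0.18 (SE, adjusted p = 6.5e-06)). The main chain of type I collagen, Col1a1, fell from 2774 and 2807 to 804 and 1207 CPM, a smaller change. Col6a3, a chain of the microfibrillar type VI collagen, rose from 40.3 and 39.6 to 859.9 and 1101 CPM (4.62 ± 0.19 (SE, adjusted p = 7.9e-06)). Col4a6, another basement membrane chain gene, rose from 2 counts in each wild-type library to 11.4 and 27 CPM. Col12a1, which coats collagen fibrils, fell from 989 and 942 to 237 and 205 CPM. Among 20 collagen processing enzymes 9 fell (45%) and 5 rose (25%). The C-proteinase enhancer gene Pcolce2 fell from 78.9 and 77.9 to 0 and 0.0928 CPM and the crosslinking enzyme gene Loxl2 from 329 and 321 to 56.4 and 69.9 CPM, while its relative Lox rose from 228 and 222 to 1313 and 1157 CPM (2.45 ± 0.13 (SE, adjusted p = 2.1e-05)).

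Of 24 proteoglycan, matricellular and elastic fibre genes tested, 23 changed, 13 higher and 10 lower. The share called was 95.8%, against 44% of all genes tested. Dcn, the small leucine-rich proteoglycan decorin and a usual marker of fibroblasts, was at 0.372 and 0.535 CPM in wild type and 1954 and 1372 CPM in the knockout (11.80 ± 0.32 (SE, adjusted p = 3.6e-06)). Spp1, the cytokine-like matrix protein osteopontin, rose from 92 and 90.1 to 2959 and 2456 CPM (4.89 ± 0.17 (SE, adjusted p = 6.5e-06)), Postn, periostin, from 1.07 and 0.677 to 48.9 and 34.5 CPM, and Prelp from 0.558 and 0.57 to 30.4 and 31.4 CPM. Thbs2, an inhibitor of angiogenesis, fell from 26.2 and 24 to 0.738 and 1.02 CPM and Mgp, an inhibitor of calcification, from 14.2 and 14.9 to 1.48 and 0.464 CPM. Of 18 matrix proteases and inhibitors 7 rose (38.9%, beside 23.4% of all genes) and 4 fell (22.2%, near the 20.6% of all genes). The gelatinase gene Mmp9 rose from 0.186 and 0.214 to 22.9 and 30.6 CPM (7.02 ± 0.28 (SE, adjusted p = 7.9e-06)), and the protease inhibitor gene Serpine2 from 0.186 and 0.178 to 18.6 and 16.8 CPM. Adamts5, which cleaves aggrecan, fell from 77.4 and 77 to 24.2 and 25 CPM, and Plau, urokinase, from 56.7 and 54.2 to 18.7 and 25.1 CPM.

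**Figure D3:**
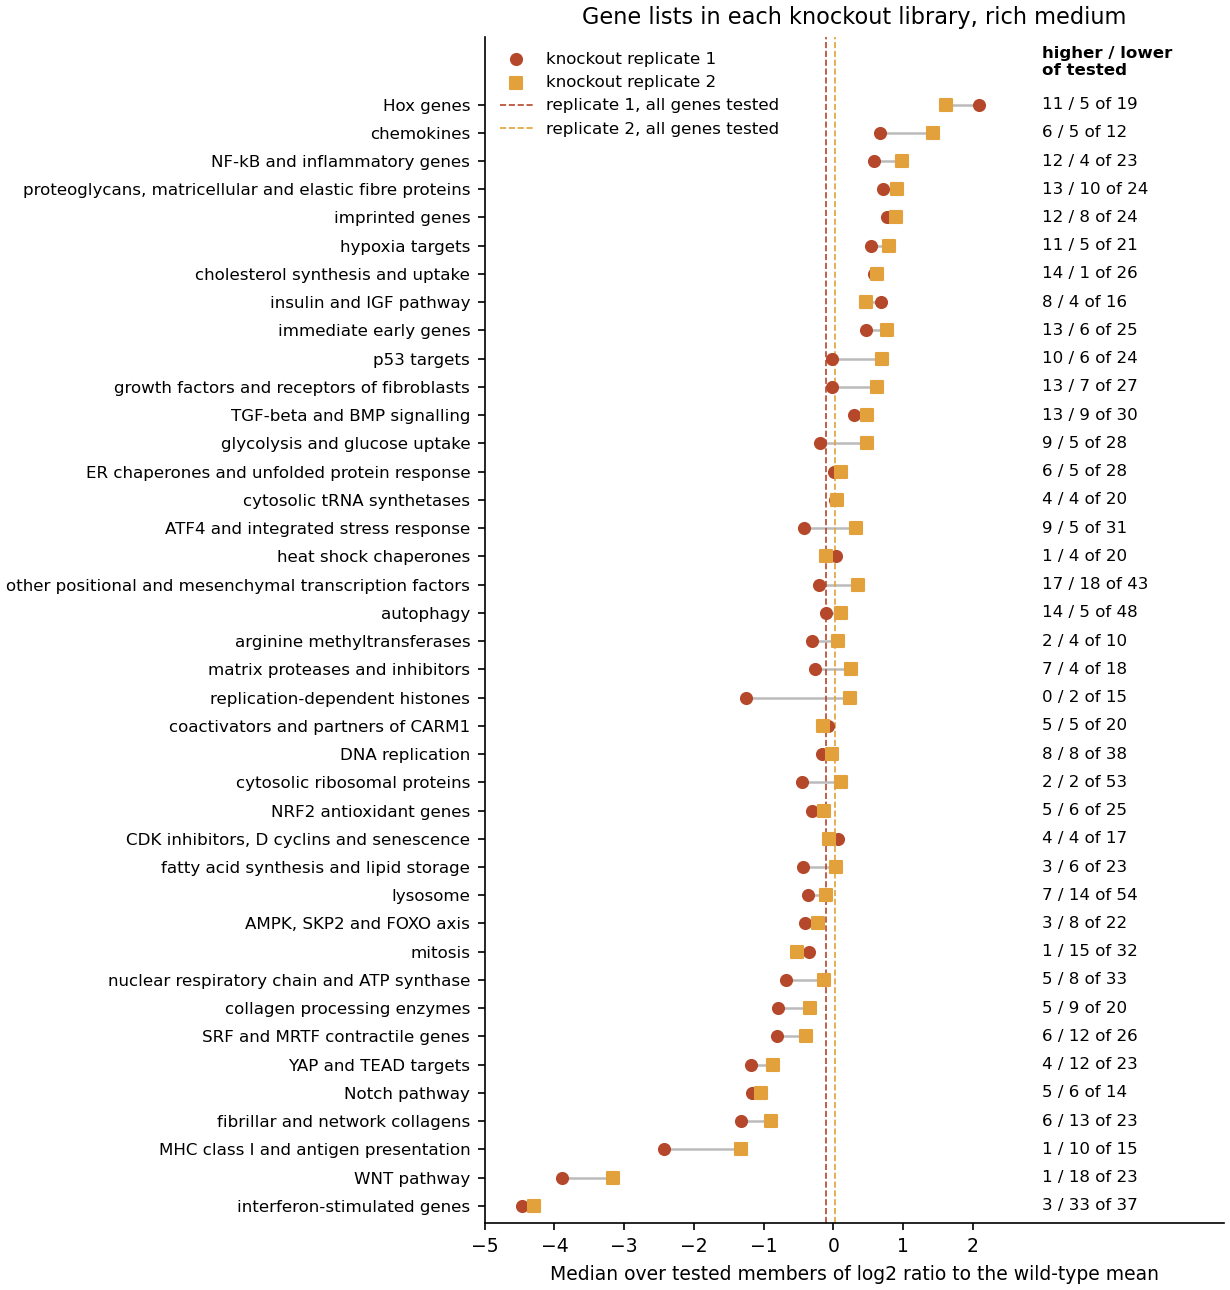
Median log2 ratio to the wild-type mean over the tested members of each gene list with at least 10 of them, for knockout replicate 1 (circles) and knockout replicate 2 (squares), in order of the fitted median. Dashed lines are the medians over all 13882 genes, -0.10 and 0.02, and the numbers at the right count members called higher and lower of those tested. Interferon-stimulated and WNT pathway genes are far below the dashed lines in both libraries, and replication-dependent histones lie at -1.26 and 0.24.

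In the WNT pathway, whose secreted ligands act through Frizzled and LRP receptors on beta-catenin and TCF factors, 18 of 23 genes tested fell (78.3%) and 1 rose (4.3%). Of all genes tested 20.6% fell and 23.4% rose. The median of the WNT list was -3.998 (-3.58 with genes at 0 counts set to their bound). Of the ligands, Wnt10b was at 37.4 and 38.1 CPM in wild type and 0 counts in the knockout (at least 374-fold lower), and Wnt5a at 11.2 and 10.4 CPM and then 0 counts (at least 106-fold). Of the receptors, the coreceptor gene Lrp5 fell from 145 and 146 to 1.23 and 1.62 CPM (-6.61 ± 0.26 (SE, adjusted p = 7.9e-06)), and Fzd8 was at 7.99 and 6.13 CPM and then 0 counts, whereas the second coreceptor gene, Lrp6, did not pass (172 and 166 and 261 and 183 CPM) except without knockout replicate 2 (log2 fold change 0.62). Tcf7, a transcription factor of the pathway, fell from 22.9 and 24.5 to 0 and 0.186 CPM. The single gene that rose was Dkk3, of the Dickkopf family of secreted modulators, from 2.97 and 3.32 to 167 and 204 CPM (5.88 ± 0.18 (SE, adjusted p = 4.1e-06)). In the Notch pathway, which signals between neighbouring cells, 6 of 14 genes tested fell (42.9%) and 5 rose (35.7%). The feedback gene Nrarp was at 8.04 and 8.81 CPM in wild type and 0 counts in the knockout, and the effector Hey2 at 3.58 and 3.14 CPM and then 0 counts. The ligand gene Jag1 rose from 25.9 and 26.8 to 123 and 103 CPM and Rbpj, the DNA-binding partner of the Notch intracellular domain, from 142 and 146 to 465 and 351 CPM.

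Genes read by the mechanosensitive regulators YAP and SRF fell more often than they rose. Of 23 YAP and TEAD targets and pathway members 12 fell (52.2%) and 4 rose (17.4%), with a median of -1.01. Of 26 SRF and MRTF contractile genes 12 fell (46.2%) and 6 rose (23.1%), with a median of -0.56. Of all genes tested 20.6% fell and 23.4% rose. Ctgf, a matricellular growth modulator and common readout of YAP, fell from 143 and 137 to 11.2 and 10.8 CPM (-3.68 ± 0.13 (SE, adjusted p = 7.1e-06)), and Cyr61, its relative, from 278 and 285 to 47.3 and 36.1 CPM (-2.76 ± 0.16 (SE, adjusted p = 2.9e-05)). Lats2, the kinase that restrains YAP and is itself a target, fell from 115 and 119.7 to 41 and 38 CPM. Fhl1, a LIM protein of muscle, fell from 164 and 150.4 to 0.246 and 0.278 CPM (-9.16 ± 0.41 (SE, adjusted p = 1.1e-05)) and Tagln, the actin-binding protein transgelin, from 165 and 159.9 to 23.9 and 39.1 CPM (-2.35 ± 0.22 (SE, adjusted p = 0.00023)). Cnn1, calponin, was at 3.72 and 3.89 CPM and then 0 counts. Mylk, the myosin light chain kinase, rose from 1.44 and 1.18 to 29.4 and 25.6 CPM (4.39 ± 0.22 (SE, adjusted p = 1.7e-05)).

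Ligand and receptor genes of several signalling pathways differed in both directions. Of 30 TGF-beta and BMP genes 13 rose (43.3%) and 9 fell (30%), beside 23.4% and 20.6% of all genes tested. Bmp4 fell from 40.4 and 40.3 to 0.738 and 0.835 CPM (-5.64 ± 0.45 (SE, adjusted p = 0.00011)) and Id2, a target of BMP signalling, from 51.2 and 57.2 to 15.3 and 18.8 CPM. The receptor gene Bmpr1b rose from 0.465 and 0.428 to 6.77 and 6.35 CPM and the coreceptor gene Tgfbr3, betaglycan, from 34.9 and 34.4 to 118 and 146 CPM. Of 27 growth factor and receptor genes 13 rose (48.1%) and 7 fell (25.9%). Hgf, the scatter factor that mesenchyme secretes to act on epithelia, had 0 counts in wild type and 64.8 and 44 CPM in the knockout (at least 821-fold higher), and Fgf7, another mesenchymal factor for epithelia, rose from 30.7 and 30.3 to 1074 and 416 CPM, with the 2 knockout libraries well apart. The EGF receptor ligand gene Ereg rose from 11.8 and 11.4 to 384 and 228 CPM, Vegfa from 55.7 and 60.8 to 359 and 432 CPM (2.76 ± 0.14 (SE, adjusted p = 2e-05)) and the receptor gene Pdgfra from 3.86 and 4.17 to 42.7 and 47.9 CPM. Pdgfd was at 16 and 17.8 CPM in wild type and 0 counts in the knockout, and Angpt1 at 11 and 11.1 CPM and then 0 counts. In the insulin and IGF pathway 8 of 16 rose (50%) and 4 fell (25%). Igfbp4, which sequesters IGFs, rose from 10.1 and 7.74 to 731 and 1191 CPM (6.76 ± 0.31 (SE, adjusted p = 1.2e-05)), and Pappa, the protease that cleaves it, from 0.651 and 0.642 to 86.5 and 74.7 CPM (6.95 ± 0.31 (SE, adjusted p = 1e-05)).

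Inflammatory genes outside the interferon programme were more often among the rises. Of 23 NF-kB and inflammatory genes 12 rose (52.2%) and 4 fell (17.4%), with a median of 0.80. Of all genes tested 23.4% rose and 20.6% fell. Lcn2, which withholds iron from bacteria, was at 0.604 and 0.927 CPM in wild type and 236 and 345 CPM in the knockout (8.53 ± 0.31 (SE, adjusted p = 7.6e-06)). Saa3, an acute-phase protein, had 3 counts over the wild-type pair and 51.4 and 67.7 CPM in the knockout. Ptges, the prostaglandin E synthase, rose from 0.279 and 0.0713 to 122 and 185 CPM (9.83 ± 0.43 (SE, adjusted p = 9.7e-06)), Il6 from 2 counts in each wild-type library to 26.3 and 16.9 CPM and the mitochondrial superoxide dismutase gene Sod2 from 55.9 and 56.3 to 234 and 269.5 CPM. In the opposite direction, the adhesion molecule gene Icam1 fell, with a log2 fold change of -8.18 (adjusted p = 0.0027), given from the main fit only. Tnfaip3, a brake on NF-kB signalling, fell less (-0.86), a call lost under some alternatives as given below. Of the NF-kB and inflammatory list, 9 rises and 1 fall held under every alternative in which the gene was tested. Of 12 chemokine genes 6 rose (50%) and 5 fell (41.7%). The neutrophil and monocyte attractant genes Cxcl5 and Ccl7 rose from 6.27 and 5.24 to 58.1 and 58.3 CPM and from 5.34 and 5.6 to 122 and 135 CPM. The homeostatic chemokine gene Cxcl12 fell from 199 and 209 to 10.8 and 10.5 CPM (-4.26 ± 0.17 (SE, adjusted p = 7.9e-06)), as did the interferon-inducible pair given above. Immediate early genes, which respond within minutes to serum, had 13 of 25 higher (52%) and 6 lower (24%). Egr2 rose from 0.743 and 1.14 to 22 and 21.3 CPM, Nr4a1 from 5.16 and 4.96 to 20.1 and 31.4 CPM and the ERK phosphatase gene Dusp6 from 6.83 and 5.24 to 21.9 and 29.9 CPM. Atf3, a stress-induced member, fell from 15.4 and 13.9 CPM to 2 counts over the knockout pair, a ratio of 217-fold (95% interval 59.7 to 1791).

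The medians of the cell cycle lists lay between -0.33 and -0.10. Of 32 mitosis genes 15 fell (46.9%) and 1 rose (3.1%), beside 20.6% and 23.4% of all genes tested. The median was -0.33, and the count of mitosis genes depended on the library. Without knockout replicate 1 it was 24 lower and 1 higher, and without knockout replicate 2 it was 18 lower and 10 higher. Ccnb1, cyclin B1, fell from 188 and 180.1 to 73.2 and 62.5 CPM (-1.44 ± 0.14 (SE, adjusted p = 0.00022)) and Ube2c, the ubiquitin-conjugating enzyme of the anaphase-promoting complex, from 196 and 192 to 88.1 and 95.6 CPM. Of 38 DNA replication genes 8 rose and 8 fell (median -0.10), so the share called, 42.1%, was near the 44% of all genes tested. Of 17 CDK inhibitor, D cyclin and senescence genes 4 rose and 4 fell (median -0.14), and the share called, 47.1%, was also near that of all genes. Among the members called, Cdkn2a, which encodes the INK4a and ARF tumour suppressors that accumulate in cultured fibroblasts, fell from 139 and 142 to 6.89 and 8.91 CPM (-4.13 ± 0.17 (SE, adjusted p = 7.9e-06)). Ccnd2, cyclin D2, rose from 79.4 and 76.1 to 299.6 and 362 CPM (2.09 ± 0.14 (SE, adjusted p = 4.6e-05)) and the CDK inhibitor gene Cdkn1a from 13.9 and 19.3 to 69.6 and 132 CPM. Of 24 p53 targets 10 rose (41.7%) and 6 fell (25%). The death receptor genes Fas and Eda2r rose from 4.18 and 4.6 to 65.5 and 59.3 CPM and from 1.53 and 1.25 to 43.8 and 31.2 CPM, and Perp, a membrane protein of desmosomes, was at 36.7 and 31.8 CPM in wild type and 0 counts in the knockout (at least 336-fold lower).

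Of 28 glycolysis and glucose uptake genes 9 rose and 5 fell, so that 50% were called against 44% of all genes tested. Txnip, the glucose-responsive inhibitor of glucose uptake, rose from 20.4 and 20.5 to 141 and 144 CPM (2.80 ± 0.16 (SE, adjusted p = 2.6e-05)), its relative Arrdc4 from 0.558 and 0.713 to 6.64 and 8.35 CPM, and hexokinase 2, Hk2, from 51 and 59 to 157 and 190.1 CPM. Of 26 cholesterol synthesis and uptake genes 14 rose (53.8%) and 1 fell (3.8%), with a median of 0.72. Of all genes tested 23.4% rose and 20.6% fell. Insig1, which holds back SREBP processing and is itself an SREBP target, rose from 50.9 and 53.6 to 141 and 136 CPM (1.41 ± 0.12 (SE, adjusted p = 0.00014)), and Sqle, squalene epoxidase, from 112 and 119 to 281 and 298 CPM. Without knockout replicate 1 this list had 19 higher and 2 lower, and without knockout replicate 2 it had 14 and 9. Of 21 hypoxia genes 11 rose (52.4%) and 5 fell (23.8%). Hif1a rose from 148 and 141 to 1229.5 and 508 CPM, with the knockout libraries well apart, and its paralog Epas1 was at 11.9 and 13.2 CPM and then at 0 counts. In the ATF4 stress response 9 of 31 rose and 5 fell, and the share called, 45.2%, was near that of all genes. The cystine transporter gene Slc7a11 rose from 5.67 and 6.77 to 85.5 and 83.2 CPM (3.76 ± 0.17 (SE, adjusted p = 1.2e-05)), and the 31 members had medians of -0.42 in knockout replicate 1 and 0.32 in replicate 2.

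Autophagy recycles cell contents through the lysosome and is induced when glucose is withdrawn, the treatment of the series. In rich medium 14 of 48 autophagy genes rose and 5 fell, with a median of 0.04, and 39.6% of them were called against 44% of all genes. Gabarapl1, a member of the ATG8 family that coats autophagosomes, rose from 25.2 and 27.5 to 100.4 and 116 CPM (2.04 ± 0.14 (SE, adjusted p = 4.9e-05)). The autophagy receptor gene Optn rose from 21.7 and 17.6 to 121 and 90.9 CPM and Mitf, a transcription factor of the TFEB family, from 2.09 and 1.57 to 27.1 and 19.2 CPM. Foxo1, a transcription factor of fasting, fell from 49.3 and 55 to 27.2 and 17.8 CPM (-1.23 ± 0.22 (SE, adjusted p = 0.004)), and Tfeb itself did not pass (18.4 and 19.4 and 3.94 and 17.9 CPM) except without knockout replicate 2 (log2 fold change -2.27). Of 54 lysosome genes 14 fell and 7 rose (median -0.19), and the share called, 38.9%, was below the 44% of all genes. Ctsl, the cysteine protease cathepsin L, rose from 199 and 196 to 1890.1 and 1203 CPM (2.97 ± 0.22 (SE, adjusted p = 8.4e-05)), while the beta-mannosidase gene Manba fell from 12.3 and 12.2 to 0.984 and 1.48 CPM and the sialidase gene Neu1 from 33.5 and 36.2 to 10.3 and 11.5 CPM. In the list of AMPK, SKP2 and FOXO genes 8 of 22 fell and 3 rose, so that 50% were called against 44% of all genes. The AMPK subunit gene Prkag2 (30 and 28.4 and 14.8 and 9.23 CPM) and the mTORC1 inhibitor gene Tsc2 (209 and 199 and 66.1 and 108 CPM) fell, and Skp2, the ubiquitin ligase subunit known to target CARM1 for degradation, did not pass (77.3 and 77.9 and 94 and 72.4 CPM) except without knockout replicate 2 (log2 fold change 0.27).

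Markers were used to check the cell type. Of 10 fibroblast markers 7 were at or above 1 CPM in wild type and 9 in the knockout, and their summed level was 7969.9 and 8004 CPM in wild type and 7461 and 9658 CPM in the knockout, with Col1a1 (given above) and Vim (2195 and 2142 and 1429.8 and 1973 CPM) high in all 4 libraries. Thy1, however, was at 0.0465 and 0.214 CPM in wild type and 135 and 124 CPM in the knockout, and Dcn and Pdgfra showed the same direction. Of the 10 fibroblast markers tested 6 rose and 1 fell, with a median log2 fold change of 1.41. Of all genes tested 23.4% rose and 20.6% fell, which is the background for the marker counts here. Leukocyte and macrophage markers summed to 5.70 to 5.81 CPM in wild type and 41.1 to 56.4 CPM in the knockout, where Cd53 was at 24.1 and 19.6 CPM after 0 counts in wild type and Tyrobp had 0 counts in all 4 libraries. Of the 7 of these tested 5 rose and none fell. Endothelial markers summed to 84.3 to 89.5 CPM and 144 to 175 CPM, but of the 6 tested 3 rose and 3 fell (median -0.70). Cdh5, the endothelial cadherin, was at 126 and 154 CPM in the knockout after 2 counts over the wild-type pair, and Pecam1 and Eng rose as well. Flt1, a VEGF receptor gene, fell from 73.8 and 69.1 to 5.66 and 3.76 CPM, as did Egfl7 and Kdr, and Tie1, Emcn and Cldn5 had 0 counts in all 4 libraries. Mesothelial markers summed to 272 to 278 CPM in wild type and 73.1 to 99.7 CPM in the knockout, a fall of the sum that came mainly from Msln (237 and 242 to 25 and 55.4 CPM). Of the 4 mesothelial markers tested it was the only one that fell, while Wt1 and Upk1b (8.61 and 6.63 CPM in the knockout) rose from 0 counts, and the median was 4.89 (3.13 with genes at 0 counts set to their bound). Neural and glial markers summed to 847 to 922 and 655 to 714 CPM, with 1 of 6 higher and 2 lower. Chondrocyte and osteoblast markers summed to 77.3 to 78.9 and 216 to 235 CPM, with 3 of 6 higher and 2 lower (median -0.57). Epithelial markers summed to 37.1 to 37.4 CPM in wild type and 18.7 to 30.2 CPM in the knockout, with 1 of 5 higher and 1 lower. Smooth muscle and pericyte markers summed to 311 to 316 and 175 to 299 CPM, with 4 of 8 higher and 2 lower. Melanocyte markers summed to 3.03 to 3.44 CPM in wild type and 19.7 to 27.8 CPM in the knockout, nearly all of it Mitf, and Dct, Mlana, Tyrp1 and Kit had 0 counts in all 4 libraries. Adipocyte markers summed to 4.28 to 4.35 CPM and 0.139 to 0.738 CPM, and 2 of the 3 tested fell. Skeletal myogenic and erythroid markers summed to under 1.5 CPM in every library. The part of other cells in the gene differences was not tested, and in bulk RNA fewer cells of a type and less RNA per cell cannot be told apart.

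By chromosome, the median difference was not 0 everywhere. The fitted medians were highest on chromosomes 18 (0.50), 6 (0.47), 16 (0.43), X (0.37), 3 (0.36) and 12 (0.33), and lowest on chromosomes 10 (-0.31), 14 (-0.29) and 13 (-0.23). Both knockout libraries gave the same sign on each of these 9 chromosomes, as on all others but chromosomes 7 and 15. On chromosome 6, 41.2% of 685 genes tested were called higher and 11.8% lower, and on chromosome 14, 17.8% of 477 were higher and 35.4% lower. The starved libraries, which this contrast did not use except for the shared estimate of spread, gave 0.48 on chromosome 18, 0.48 on chromosome 6 and -0.34 on chromosome 14. Carm1 is on chromosome 9, whose median was -0.20. Of its 40 nearest genes that were tested, 20 on each side by the RefSeq order of GRCm38.p6, 13 fell and the other 27 did not pass, beside 26.7% of the 771 genes tested on chromosome 9 and 20.6% of all genes called lower. The chromosome of a gene was taken from that RefSeq table, which is of another build than the files, and no copy number was measured.

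**Figure D4:**
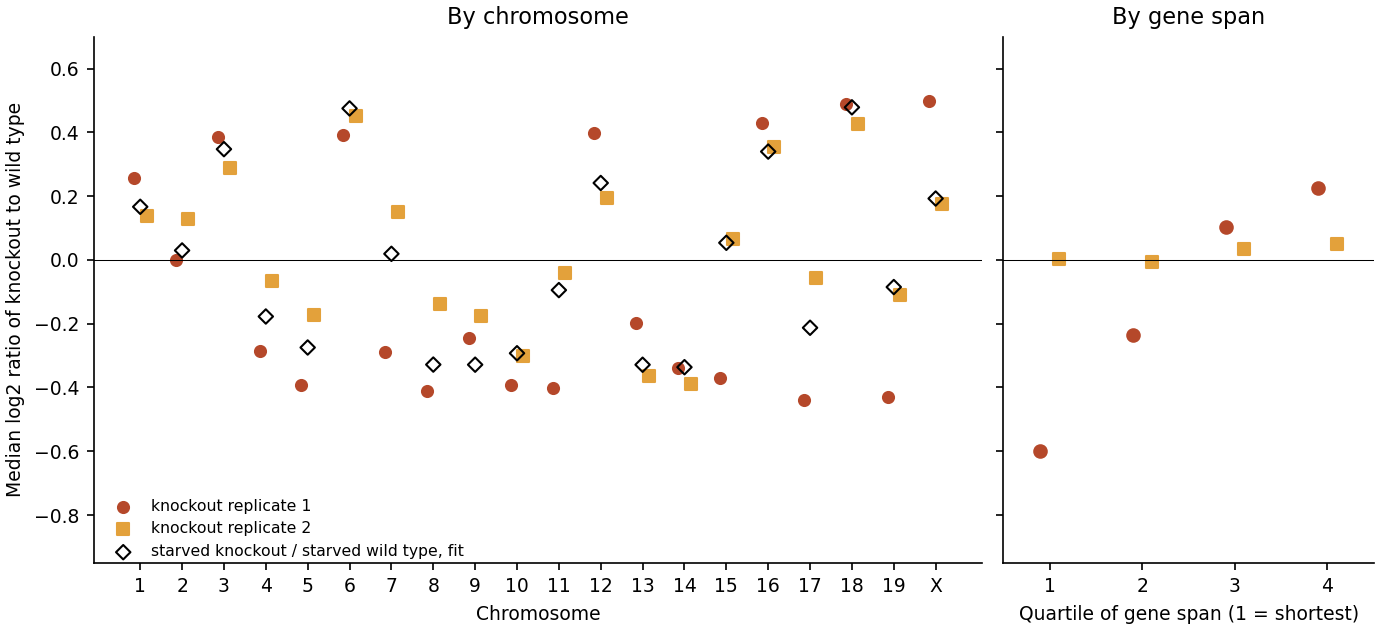
Left, median log2 ratio of each knockout library to the wild-type mean for the genes tested on each chromosome, with the fitted median of the starved comparison as open diamonds. Right, the same medians by quartile of gene span from shortest to longest. Chromosomes 1, 2, 3, 6, 12, 16, 18 and X lie above 0 in both libraries and in the starved comparison, chromosome 2 at only 0.0003 in knockout replicate 1. Chromosomes 4, 5, 8, 9, 10, 11, 13, 14, 17 and 19 lie below 0 in all of them. Only knockout replicate 1 (circles) follows gene span, from -0.60 to 0.23.

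The starved pair offers the same genotype comparison in libraries that are not shared with the rich pair. There 7586 genes (54.6%) were called. Of the 6114 genes called in rich medium 4314 were called in the same direction after starvation, 70.6% of the rich calls and 56.9% of the starved calls, 216 in the opposite direction and 1584 not at all. The 4314 became 7120 and 6913 without knockout replicate 1 or 2 of the rich pair and 2825 and 2763 without wild-type replicate 1 or 2. The genotype difference itself depended on the medium in 1850 genes (13.3%), 820 with a higher and 1030 with a lower difference in rich medium, and all 216 genes with opposite calls were among them. Many of the largest differences were found in both media. Peg10 had 99.9 and 93.8 CPM in starved wild type and 0 and 0 CPM in the starved knockout, Ifi202b 0 and 0 and 145 and 138 CPM, Dcn 0.717 and 0.762 and 1252 and 1172 CPM and Grb10 584 and 557 and 2.29 and 1.25 CPM. Interferon-stimulated genes were lower in 24 of 37 after starvation and higher in 4 (median -3.27), and WNT genes lower in 14 of 23 and higher in 4. Of all 13882 genes tested 3722 were lower and 3864 higher after starvation.

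Targets of YAP and SRF and immediate early genes differed between the media. As background, 3864 of all 13882 genes tested were higher and 3722 lower in the starved knockout, and 1850 (13.3%) depended on the medium. Of the 23 YAP and TEAD genes 10 were higher and 4 lower in the starved knockout, and 10 had a lower difference in rich medium by the test of that dependence. Of 26 contractile genes 16 were higher and 4 lower after starvation, with 15 depending on the medium, and of 25 immediate early genes 20 were higher and 1 lower, with 16 depending on it. Ctgf was at 19.3 and 18.7 CPM in starved wild type and 131 and 125 CPM in the starved knockout, a log2 fold change of 2.75 ± 0.12 (SE, adjusted p = 7.3e-06), and the difference between the media was -6.43 ± 0.18 (SE, adjusted p = 2.9e-05). Cyr61 was at 57.6 and 58.2 and 922 and 870.2 CPM after starvation, and its difference between the media was -6.71 ± 0.23 (SE, adjusted p = 3e-05). In both genes the starved knockout libraries lay above the starved wild-type libraries and the rich knockout libraries below the rich wild-type libraries. DNA replication genes went the other way, with 29 of 38 lower in the starved knockout and 24 that depended on the medium. The counts per list for starvation and for dependence on the medium were not recomputed without single libraries. Txnip, higher in the knockout in rich medium, was at 5.62 and 6.3 and 5.09 and 6.28 CPM after starvation, where the difference no longer passed. The count of genes that depended on the medium was 7040 without knockout replicate 1 of the rich pair, 8020 without replicate 2, and between 452 and 487 without any 1 of the other 6 libraries.

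**Figure D5:**
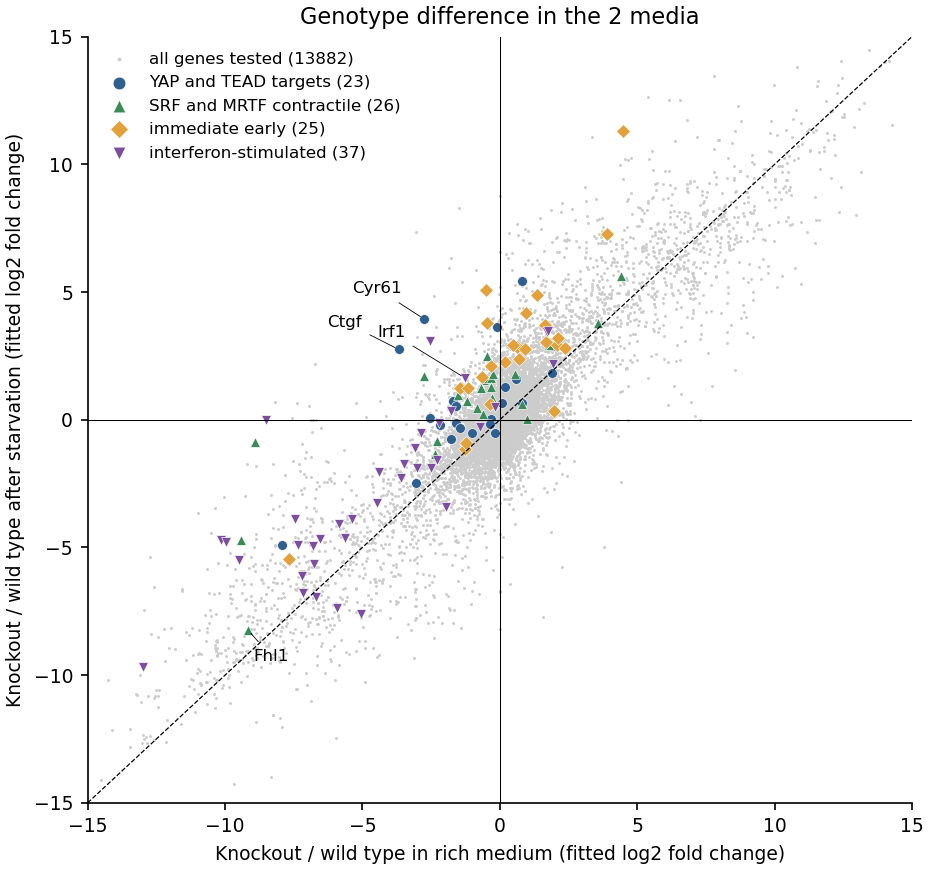
Fitted log2 fold change of knockout over wild type in rich medium (horizontal) and after 18 h of glucose starvation (vertical) for the 13882 genes tested, with 4 gene lists in colour and the line of equal change dashed. Ctgf, Cyr61 and Irf1 lie at the upper left, lower in the knockout in rich medium and higher after starvation, and Fhl1 is low in both.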

How the data were processed

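Total RNA of mouse embryonic fibroblasts was sequenced, and the authors deposited 1 table of read counts per transcript for 8 libraries, with 31055 rows and 23366 gene symbols. The submitters' processing notes name TopHat2 2.0.9, bedtools and the mm9 build, and do not state a strand setting. For each symbol the transcript row with the highest total over the 8 library columns was kept, and rows of other transcripts were dropped. Library totals over the kept rows were 8447016 to 28155438. With R 4.3.3, edgeR 4.0.16 fitted 1 mean per group to all 8 libraries (TMM scaling, filterByExpr, quasi-likelihood test), and p-values were adjusted over the 13882 genes tested by Benjamini-Hochberg at 0.05. The biological coefficient of variation was 18.5%. The procedure was tested on simulated counts with the same spread in every group. That setting does not cover the wider spread of the knockout pair in rich medium. Ratios of single knockout libraries to the wild-type mean used a prior count of 2 and no test. A fold against 0 counts is a lower bound from a floor of 3 counts over the pair, and ratios with 1 to 3 counts have exact 95% intervals; both cover counting error only.

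Named genes followed a rule that took Carm1 and the X-inactivation list, the largest changes in each direction with both knockout libraries beyond both wild-type libraries and at least 5 CPM, the members of each list with the smallest p or the largest difference within the knockout pair, the genes that differed most within that pair at 10 CPM or more, and the strongest calls for both media and for dependence on the medium. Further genes were added after their values were seen, and a few are not reported here. The comparison and its 41 gene lists were chosen with earlier results of these data known. Alternatives were DESeq2 1.42.0, limma 3.58.1 (voom, with and without library quality weights), other scalings and filters, other transcript choices, a 1.5-fold minimum, the 4 rich-medium libraries alone, a replicate block and leaving out each library. Gene span, chromosome, order and promoter windows came from RefSeq tables of GRCm38.p6, and no coordinate of the files was converted.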

Additional observations from a re-analysis of the deposited data

Results flagged for a closer look

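The genotype difference depended on the medium, by the interaction contrast of edgeR's quasi-likelihood test, in 1850 genes. The values here are the log2 fold change in rich medium minus that after starvation, given for genes called in opposite directions in the 2 media or with the smallest p in that contrast. It was -6.43 for Ctgf and -6.71 for Cyr61, both readouts of YAP. It was -6.71 for Tnfaip3, a brake on NF-kB signalling that was at 40 and 42.2 CPM in wild type and 20.4 and 24.7 CPM in the knockout in rich medium, and 2.59 and 2.87 and 155 and 162 CPM after starvation. The chemokine genes Ccl2 (-6.42) and Cxcl1 (-5.98) were higher in the knockout in both media but far more so after starvation. Irf1 (-2.91), a transcription factor of the interferon response, Tapbp (-2.398), Adamts5 (-2.66), Plau (-2.75), Id2 (-2.10) and Ube2c (-2.11) fell in the rich knockout and rose in the starved knockout. In the other sense the value was 4.36 for Klhl24 and 2.94 for Fbxl20, a subunit of ubiquitin ligases, both higher in the rich and lower in the starved knockout, 2.87 for Txnip and 2.67 for Cdc6, a replication licensing factor that did not pass in rich medium (76.9 and 78.4 and 72.1 and 86 CPM) and fell after starvation. In rich medium alone the fall of Tnfaip3 was lost with limma-voom and library quality weights (adjusted p = 0.0509) and with a 1.5-fold minimum (adjusted p = 0.0541). Each gene given passed the test of the difference, whose count without single libraries is given above.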

How the results depend on the processing

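The count of 6114 genes was 3749 with limma-voom and library quality weights (1429 lower), 3245 with the 4 rich-medium libraries alone (1745 higher, 1500 lower) and 3623 with a 1.5-fold minimum (1977 higher, 1646 lower). Leaving out 1 library at a time gave 3369 to 10336 genes changed, 1798 to 4876 higher, 1571 to 5460 lower, 2763 to 7120 also changed after starvation and 452 to 8020 dependent on the medium. DESeq2 called 2880 dependent on the medium. The other scalings, filters, tools and transcript choices kept these counts within 1.5 times. Of the single-library counts, genes past the fold in both were 1693 among genes with at least 10 CPM, those past it in replicate 2 alone 356 there and 1132 at 1.5-fold, and those in opposite directions 2 there, 235 at 1.5-fold and 76 with a prior count of 0.5. Where these differ, the cause was not tested beyond the fewer genes or libraries that a setting uses. Among named genes that did not pass, the sign differed between the fits without knockout replicate 1 and without replicate 2 for B2m (-0.65 and 0.62; -0.0062 and -0.16 with limma-voom without and with quality weights), Ppig (-0.15 and 1.79), Rps14 (0.26 and -2.59), Skp2 (-0.14 and 0.27), Ddx3x (-0.46 and 0.24), Kdm6a (-0.18 and 0.52), Tspo (0.50 and -2.51), Znhit2 (0.29 and -3.26), Ifit2 (-0.66 and 0.19) and Cdc6 (0.10 and -0.11; -0.060 with library totals and no scaling factor).

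The correlations of replicate differences between groups lay between -0.03 and 0.06, so no pairing by replicate number was seen. Such correlations cannot exclude that replicates of the same number share an embryo, culture or batch. With a replicate block 5802 genes were called (3044 higher, 2758 lower), 4089 also after starvation and 1490 for dependence on the medium. In knockout replicate 1 a level under 0.355 CPM by the library total, with no scaling factor, is under 3 counts, so differences below it were not detectable there.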

Other observations

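Several lists of general cell functions had a share of calls near or below the 44% of all genes tested. Of 20 cytosolic tRNA synthetase genes 4 rose and 4 fell, of 28 endoplasmic reticulum chaperone genes 6 rose and 5 fell, of 33 respiratory chain genes 5 rose and 8 fell, of 25 NRF2 antioxidant genes 5 rose and 6 fell, of 20 heat shock chaperone genes 1 rose and 4 fell, and of 23 fatty acid and lipid storage genes 3 rose and 6 fell. Single members stood out. The small heat shock protein gene Hspb1 was at 36.2 and 31.1 CPM in wild type and had 0 counts in the knockout, at least 329-fold lower. The ferritin heavy chain gene Fth1, an iron store, rose from 635 and 620.0 to 1999.8 and 1855 CPM (1.62 ± 0.13 (SE, adjusted p = 0.00012)), the sulfiredoxin gene Srxn1 rose from 38.1 and 37.9 to 127 and 183 CPM, and the pentose phosphate enzyme gene Tkt fell from 353 and 351 to 71.5 and 128 CPM. Sdha, the catalytic subunit of succinate dehydrogenase, fell from 284 and 294 to 144 and 145 CPM.

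Single markers tied to other lineages also differed, while their lists held members called in both directions. Of the smooth muscle and pericyte markers tested 4 of 8 rose and 2 fell. Of the neural and glial markers 1 of 6 rose and 2 fell, and of the chondrocyte and osteoblast markers 3 of 6 rose and 2 fell. Mcam, a surface molecule of pericytes and endothelium, fell from 124 and 115 to 2.09 and 3.25 CPM (-5.42 ± 0.22 (SE, adjusted p = 7.9e-06)), the neuronal tubulin-binding gene Stmn2 fell from 153 and 139.9 to 12.8 and 11.8 CPM (-3.58 ± 0.14 (SE, adjusted p = 7.9e-06)), and Sox9, a factor of cartilage and other progenitors, rose from 8.78 and 8.91 to 105 and 124 CPM (3.70 ± 0.18 (SE, adjusted p = 1.4e-05)). Outside all lists, Gatm, the first enzyme of creatine synthesis, and Cdyl, a chromatin corepressor, had 0 counts in both knockout libraries of either medium, and the phosphodiesterase gene Pde3b, at 1 count over the rich wild-type pair, reached 176 and 106 CPM in the rich knockout and 94 and 91.9 CPM in the starved knockout.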
